A study of Mus musculus with 22 samples.

Results

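The globin genes of the mouse encode the protein chains of haemoglobin. Of 37991 genes in the count files, the 7 alpha- and beta-globin genes described here were taken by name. They are Hba-x, Hba-a1 and Hba-a2 of the alpha cluster on chromosome 11, and Hbb-y, Hbb-bh1, Hbb-b1 and Hbb-b2 of the beta cluster on chromosome 7. The rule names them and uses no measured value, though earlier results of these data were known when it was made. RNA-seq counts came from 6 fetal livers at E14.5, 3 of them wild-type for Rlf (the zinc finger gene Rearranged L-Myc Fusion) and 3 homozygous for MommeD28, a null Rlf allele made by ENU mutagenesis. DNA methylation, measured by whole-genome bisulphite sequencing as the percent of unconverted reads, came from 12 libraries: 2 wild-type and 2 homozygous for MommeD28 in each of 3 tissues, namely embryo at E10.5 and liver at E14.5 and at E18.5. Every animal, the wild-type ones included, was of the inbred FVB/NJ Line3 background, homozygous for a multicopy GFP transgene that is driven by a human alpha-globin promoter and its HS-40 enhancer. The E10.5 embryos were male, the E18.5 livers female, and each genotype at E14.5 had 1 male and 1 female bisulphite library, so tissue, stage and sex change together between E10.5 and E18.5. The bisulphite-sequenced livers of E14.5 were littermates. In the RNA-seq, replicates 1 and 2 of each genotype were male and replicate 3 was female.

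Each haemoglobin molecule pairs alpha-like with beta-like chains. Hba-x encodes the embryonic zeta chain, and Hbb-y and Hbb-bh1 encode the embryonic epsilon-y and beta-h1 chains, which are made mainly by the primitive red cells of the yolk sac. Hba-a1, Hba-a2, Hbb-b1 and Hbb-b2 encode the adult chains, made by the definitive red cells that arise in the fetal liver and later in the bone marrow. Within each cluster the embryonic genes lie nearest to the distal enhancers, which in the alpha cluster sit within the neighbouring gene Nprl3 and in the beta cluster form the locus control region upstream of Hbb-y. Promoters of these genes hold short elements bound in red cells by factors such as Klf1 (CACCC) and Gata1 (GATA), and few CpGs, the dinucleotides at which methylation is measured.

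The proximal promoters are shown because the methylation windows lie around them, though few of the CpGs used fall within the printed stretches. Each line gives the 130 bases before the start site, 5′ to 3′ on the strand of the gene, from the mm9 reference of C57BL/6J mice, with CpGs in capitals. Start sites are those of RefSeq (GRCm38.p6), located in mm9 by exact sequence match for 6 of the 7 genes; Hbb-b1 and Hbb-b2 are listed there as Hbb-bs and Hbb-bt. For Hbb-bh1 the GENCODE vM1 start was used. Hba-a1 and Hba-a2 were identical over all 297 bases in which their longer, 300-base promoters overlap, so only Hba-a1 is printed.
Hba-x, chr11:32176470-32176599, plus strand: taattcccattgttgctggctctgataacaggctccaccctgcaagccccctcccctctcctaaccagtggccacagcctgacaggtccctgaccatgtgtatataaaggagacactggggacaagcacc
Hba-a1, chr11:32183542-32183671, plus strand: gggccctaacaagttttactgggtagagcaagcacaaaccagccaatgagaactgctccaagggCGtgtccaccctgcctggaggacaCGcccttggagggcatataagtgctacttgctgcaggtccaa
Hbb-y, chr7:111001722-111001851, minus strand: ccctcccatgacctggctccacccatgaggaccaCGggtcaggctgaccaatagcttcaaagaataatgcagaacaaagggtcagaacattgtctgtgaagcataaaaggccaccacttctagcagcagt
Hbb-bh1, chr7:110991679-110991808, minus strand: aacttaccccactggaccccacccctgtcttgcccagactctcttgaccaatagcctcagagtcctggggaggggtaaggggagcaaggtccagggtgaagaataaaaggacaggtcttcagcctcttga
Hbb-b1, chr7:110976443-110976572, minus strand: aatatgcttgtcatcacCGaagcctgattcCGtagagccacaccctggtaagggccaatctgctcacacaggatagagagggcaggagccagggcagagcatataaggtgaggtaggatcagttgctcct
Hbb-b2, chr7:110962438-110962567, minus strand: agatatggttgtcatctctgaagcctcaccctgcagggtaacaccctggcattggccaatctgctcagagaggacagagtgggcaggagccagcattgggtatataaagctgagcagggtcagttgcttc

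Hba-x, Hbb-bh1 and Hbb-b2 have no CpG in these stretches, Hbb-y has 1, and Hba-a1 and Hbb-b1 have 2 each. Over the 300-base promoters (250 bases before and 50 after the start) the 7 genes hold 1 to 4 CpGs, against a median of 7 over all 32851 RefSeq promoters of that length. Searched on both strands, with no motif containing another, CACCC was found in 7 of 7 promoters and in 57.5% of all promoters, and GATA in 7 of 7 and in 57.9%. CCAAT was found in 6 of 7, Hba-x being the exception, and in 37.4% of all promoters. TATAA was found in 5 of 7 and in 24.9% of all promoters. CATAAA was found in 1 of 7, Hbb-y, at 29 bases before the start as well as farther up, and in 11.9% of all promoters. The promoters of the adult pair Hbb-b1 and Hbb-b2 were 56.2% identical at the best ungapped alignment, and those of the embryonic pair Hbb-y and Hbb-bh1 were 43.7% identical. These matches describe the letters in the window and not binding.

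The RNA-seq libraries held 12928313 to 14621004 counts, and the bisulphite libraries 319866478 to 710952704 reads over CpGs, with the E14.5 livers the deepest. Unconverted reads on the unmethylated lambda spike-in were 0.0412 to 0.0775%. Rlf itself had 918 to 1106 counts per liver and a log2 fold change of 0.08 ± 0.07 (SE, adjusted p = 0.654), and since MommeD28 is carried as a mutation within the gene its count does not check the genotype labels. The livers matched their label: the hepatoblast markers Afp and Alb averaged 29800 and 26650 CPM in wild-type, where CPM is the count in each 1000000 counts of the TMM-scaled library. Among the RNA-seq livers wild-type replicate 2 had the lowest globin share. The 7 globin genes took 2.55% of its counts, against 4.69% and 3.83% in the other wild-type livers. This liver was singled out on the globin values themselves, after they were seen. Among the bisulphite libraries E18.5 homozygous replicate 1 stood apart, with 65.5% methylation over all CpGs against 61.4 to 61.7% in the other E18.5 livers. Values without them are given beside the results that they changed most.

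In E14.5 liver the adult chains made up nearly all globin RNA in both genotypes, and no globin gene differed between genotypes at an adjusted p below 0.05. Levels between genes are compared as CPM per kilobase of exon. In wild-type livers Hbb-b1 was at 23770 ± 8955 (SD, n = 3), Hba-a1 at 12720 ± 3609 and Hbb-b2 at 7128 ± 1861 CPM per kilobase. Hbb-y was next at 1658 ± 253, then Hba-x at 99.1 ± 33.3, Hbb-bh1 at 54.8 ± 2.28 and Hba-a2 at 9.50 ± 2.49. The levels of Hbb-b1 and Hba-a1 overlapped within their SDs, and those of the other neighbours in the order did not. The order was the same in homozygous livers.

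The position of Hba-a2 at the foot of that order is uncertain. Hba-a2 received 63 to 106 counts per liver and Hba-a1 100409 to 172655. Of the 50-base stretches of Hba-a2 transcripts, the length of the reads, 87.4% occur exactly in Hba-a1 transcripts and 96.5% occur there with up to 2 mismatches, so reads from either copy could be assigned to the other or dropped. Hbb-b1 and Hbb-b2 share 47.9% and 58.3% of their 50-base stretches with each other. Hba-x, Hbb-y and Hbb-bh1 share none exactly with another member.

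For Hbb-b1, the major adult beta chain, wild-type livers had 27607, 12277 and 21653 CPM and homozygous livers 18111, 18358 and 18666 CPM. Wild-type replicate 2 was the lowest of the 6 and the other wild-type livers were the highest, so the homozygous values lay inside the wild-type range. The log2 fold change (homozygous over wild-type) was -0.16 ± 0.32 (SE, adjusted p = 0.876). Hba-a1, an adult alpha chain, followed the same pattern, with 13172, 7318 and 10489 CPM in wild-type and 7793, 8306 and 9695 CPM in homozygous livers. Its log2 fold change was -0.26 ± 0.23 (adjusted p = 0.678). Hbb-b2, the second adult beta chain, had 6175, 3595 and 5263 CPM in wild-type and 4152, 4039 and 4877 CPM in homozygous livers, with a log2 fold change of -0.20 ± 0.21 (adjusted p = 0.729). For Hba-a2 the values were 8.09, 4.76 and 6.24 CPM in wild-type and 5.12, 4.55 and 5.34 CPM in homozygous livers, and the log2 fold change was -0.34 ± 0.19 (adjusted p = 0.428). All 4 adult genes had their lowest wild-type value in replicate 2.

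Of the embryonic genes, Hba-x and Hbb-y were highest, not lowest, in wild-type replicate 2. Hba-x had 66.8, 128 and 84.5 CPM in wild-type and 66.6, 125 and 92.9 CPM in homozygous livers. Replicate 2 of both genotypes was the highest, and the log2 fold change was 0.03 ± 0.37 (adjusted p = 0.983). Hbb-y had 995, 1289 and 1004 CPM in wild-type and 830, 1186 and 1113 CPM in homozygous livers, again highest in the replicates numbered 2, with a log2 fold change of -0.07 ± 0.16 (adjusted p = 0.888). Hbb-bh1 had 32.9, 32.8 and 35.3 CPM in wild-type and 23.3, 32.2 and 29.3 CPM in homozygous livers. It was the only member whose groups did not overlap, every homozygous liver being lower, as were 9.84% of the 14183 genes tested. Its log2 fold change was -0.25 ± 0.10, with an adjusted p of 0.274 in edgeR's quasi-likelihood test.

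**Figure D1:**
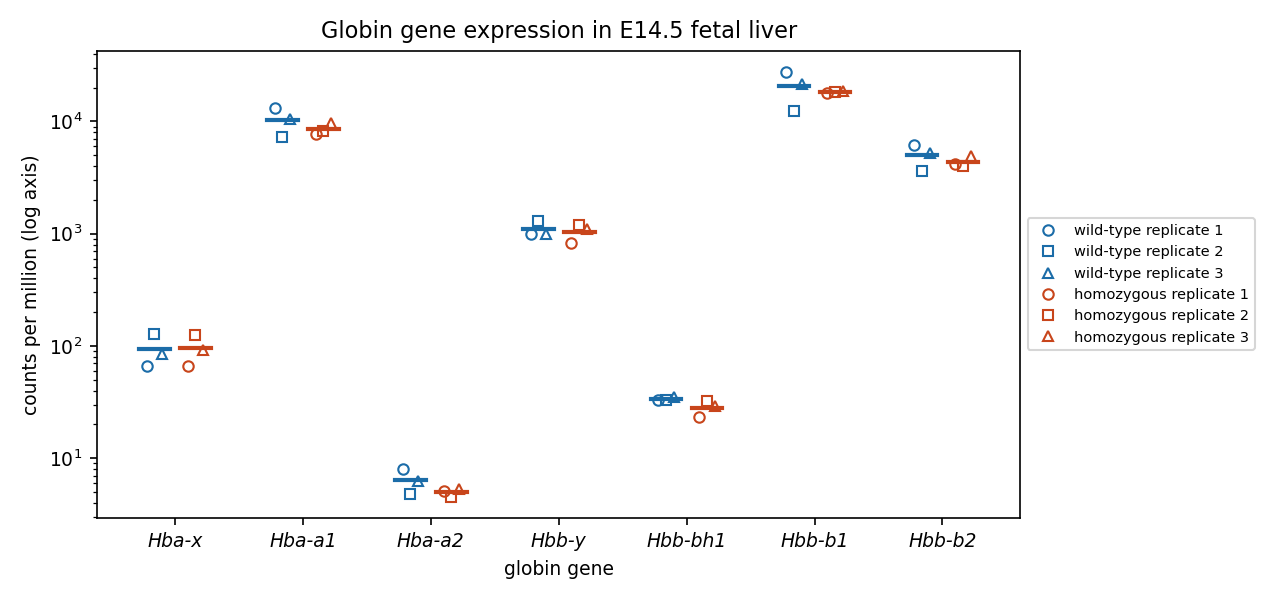
CPM on a log axis for the 7 globin genes in the 6 E14.5 livers, wild-type in blue and homozygous in orange, with symbols for replicates and a bar at the mean of 3. For the 4 adult genes wild-type replicate 2 (blue square) lies below every other wild-type liver, and for Hba-x and Hbb-y it lies above.

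Thus 0 of 7 globin genes were called by edgeR, where 1.76% of the genes tested were called (250 of 14183, 138 higher and 112 lower). DESeq2 also called 0. Without wild-type replicate 2 the call changed for the adult beta chains. Hbb-b1 then had a log2 fold change of -0.42 (adjusted p = 0.0223) and Hbb-b2 of -0.39 (adjusted p = 0.038), while Hba-a1 was at -0.46 (adjusted p = 0.0791) and Hba-a2 at -0.51 (adjusted p = 0.145). In that fit 2 of 7 members were called, where 2.03% of genes were. The liver left out there was picked after its low globin values were seen. Without wild-type replicate 1, Hbb-b1 was at 0.115, Hbb-b2 at -0.024, Hba-a1 at -0.05 and Hba-a2 at -0.134, with adjusted p of 0.845 or more. Same-numbered livers, which share their sex, deviated together. With the replicate as a block 3.37% of genes were called and 0 of 7 members, Hbb-bh1 being the nearest at an adjusted p of 0.157.

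As a share of all counts, the 7 globin genes took 4.69, 2.55 and 3.83% in wild-type and 3.09, 3.19 and 3.44% in homozygous livers, a difference of means of -0.45 points (p = 0.6, exact two-sided permutation test, whose smallest possible p is 0.1). Hba-x, Hbb-y and Hbb-bh1 together made up 2.28, 5.88 and 2.92% of globin counts in wild-type and 2.97, 4.19 and 3.58% in homozygous livers (exact permutation p = 1). The ratio of Hbb-b1 to Hbb-b2 counts was 4.47, 3.42 and 4.11 in wild-type and 4.36, 4.55 and 3.83 in homozygous livers (exact permutation p = 0.6). The groups overlapped in each of these measures with all 6 livers. Without wild-type replicate 2, the groups no longer overlapped in the first 2 measures: the difference was -1.02 points for the globin share and 0.985 points for the embryonic share. The ratio difference was then -0.048, against 0.245 with all livers. That liver, with the lowest globin share and the highest embryonic share of the 6, was picked after its globin values were seen. The lost overlap can follow from that choice alone. Single livers also set the sign otherwise, the globin share difference being 0.048 points without wild-type replicate 1 and the embryonic share difference 0.195 points without homozygous replicate 1. In bulk liver, fewer red cells of a kind and less RNA per cell cannot be told apart.

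Genes that serve haemoglobin were read from the same fit. None of the 11 heme synthesis genes passed the test (median log2 fold change -0.07, against -0.002 over all genes tested). Alas2, the rate-limiting erythroid enzyme, had the lowest value, with a mean of 1545 ± 304 CPM in wild-type and 1389 ± 79.9 in homozygous livers (log2 fold change -0.15 ± 0.13, adjusted p = 0.654). Cpox, which makes protoporphyrinogen, had the highest, at 1700 ± 169 and 1705 ± 23.6 CPM (adjusted p = 0.987). None of 6 measured partners of globin passed (median -0.09). The lowest was Hp, or haptoglobin, which binds free haemoglobin, at -0.35 ± 0.12 (adjusted p = 0.172), and the highest was Hpx, or hemopexin, which binds free heme, at 377 ± 42.9 CPM in wild-type and 375 ± 49.6 in homozygous livers (adjusted p = 0.991).

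None of 26 regulators of globin genes passed either (median -0.03). Klf1, the activator of adult beta-globin, had the lowest value, with a mean of 502 ± 51.5 CPM in wild-type and 433 ± 11.5 in homozygous livers (log2 fold change -0.21 ± 0.07, adjusted p = 0.177). Gata2, a factor of early progenitors, had the highest, at 9.35 ± 1.74 and 12.4 ± 1.13 CPM (0.39 ± 0.14, adjusted p = 0.196). Bcl11a, a repressor of embryonic and fetal globin genes, was at 83.5 ± 4.22 and 84.1 ± 1.82 CPM (adjusted p = 0.96). Of 16 measured red cell membrane genes 0 passed (median -0.08). They ran from -0.19 ± 0.13 for Epb4.2, or protein 4.2 (adjusted p = 0.574), to 0.03 ± 0.12 for Tfrc, the transferrin receptor (adjusted p = 0.951).

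Markers of the other cells of the liver moved in part with genotype. Of 6 megakaryocyte genes 2 rose, Pf4 (platelet factor 4) by 0.40 ± 0.07 on the log2 scale (adjusted p = 0.0052) and Itga2b, a platelet integrin, by 0.31 ± 0.07 (adjusted p = 0.0463), and 1 of 7 neutrophil genes fell, Camp, an antimicrobial peptide, at -0.89 ± 0.15 (adjusted p = 0.0252). The summed megakaryocyte level was 490 to 520 CPM in wild-type and 595 to 659 in homozygous livers, and the summed neutrophil level 565 to 807 and 506 to 593 CPM. Of 10 hepatoblast, 8 macrophage and 5 endothelial genes 0 were called, with medians of 0.11, 0.02 and 0.18. Their lowest and highest values were -0.05 (Krt8) and 0.35 (Apob), -0.59 (Marco) and 0.22 (Cd68), and 0.02 (Cdh5) and 0.41 (Stab2), with adjusted p of 0.285 or more. The extremes of the megakaryocyte list were Ppbp (0.17) and Gp1ba (0.44, adjusted p = 0.0748), and those of the neutrophil list Ngp (-0.93, adjusted p = 0.162) and Mpo (0.13). Summed hepatoblast levels were 57710 to 68520 CPM in wild-type and 70690 to 81350 in homozygous livers. Wild-type replicate 2 had the lowest summed heme synthesis level (6891 CPM, against 7293 to 9008 in the other livers), the lowest red cell membrane level (13110 against 13280 to 17670), the lowest hepatoblast level and the highest neutrophil level. Without wild-type replicate 2, the medians were -0.17 for heme synthesis, -0.17 for red cell membrane and -0.19 for globin partners, with 0 genes called in these lists, and without wild-type replicate 1 they were -0.007, 0.03 and 0.015. The calls in the marker lists depended on single livers. Leaving out any 1 liver gave 1 to 3 megakaryocyte genes higher. It gave 0 neutrophil genes without wild-type replicate 1, homozygous replicate 1 or homozygous replicate 2, 1 without wild-type replicate 3 or homozygous replicate 3, and 3 lower without wild-type replicate 2. With the replicate block 4 megakaryocyte genes were higher and 4 neutrophil genes lower. The part of cell composition in the globin values was not tested.

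Across the 6 livers the adult genes varied together. This is a description over 6 livers that share library and genotype, with no test. The correlation of log2 CPM was 0.98 between Hba-a1 and Hbb-b2, 0.93 between Hbb-b1 and Hbb-b2 and 0.91 between Hba-x and Hbb-y, and those of Hba-x with the adult genes ran from -0.705 to -0.564. Those of Hbb-y with the adult genes ran from -0.533 to -0.254, and those of Hbb-bh1 from 0.137 to 0.409. Among 9722 genes, those most like the mean of the adult genes were Gclm, of glutathione synthesis (r = 0.9988), Prdx2, the red cell peroxiredoxin (0.9943), Trim10 (0.9923), Alas2 (0.9898) and Rnf11 (0.9888). Those most like the mean of the embryonic genes were Dusp12 (0.9908), Mrpl9 (0.9854), Msto1 (0.9852), Gtpbp5 (0.9827) and Ptpn7 (0.9783). Of the other genes of the clusters, theta-like Hbq1b had 332 to 390 counts and Hbq1a 26 to 54, Hbb-bh2 had 0 or 1, and the pseudogene Hbb-bh3 was listed at 0 in every liver. Flanking Nprl3 had 378 to 441 counts and Mpg 201 to 236, and the olfactory receptor genes on both sides of the beta cluster had 0 or 1.

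Methylation around the start sites was measured for 3 adult and 2 embryonic genes. Each window held the CpGs within 1 kb of the GENCODE start that had at least 6 reads in all 12 libraries, and at least 3 such CpGs were needed. The number of CpGs used was 9 for Hba-a1, 8 for Hba-x and 5 each for Hbb-b1, Hbb-b2 and Hbb-y, with 16.4 to 59.4 reads on each CpG and library on average. Hbb-bh1 had 2 and Hba-a2 had 0, so 5 of 7 members were tested among 20675 genes. The authors called CpGs on mm9 with FVB/NJ substitutions: of the 34 CpGs of the members with enough reads, 26 are CpGs in the mm9 genome and 8 are not, all 8 in the beta cluster.

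Between E10.5 embryo and E14.5 liver, wild-type methylation fell at the adult genes Hbb-b1, Hba-a1 and Hbb-b2. Hbb-b1 was at 90.7 and 81.7% in the E10.5 embryos, 42.7 and 37.3% in the E14.5 livers and 52.1 and 52.6% in the E18.5 livers. No E14.5 or E18.5 library reached any E10.5 value, and the E14.5 minus E10.5 difference was -46.2 percentage points (edgeR quasi-likelihood test, adjusted p = 5.4e-07). Hba-a1 was lower at each stage, at 41.1 and 47.8%, then 16.9 and 13.8%, then 25.17 and 14.48%, and its E14.5 minus E10.5 difference was -29.2 points (adjusted p = 1.2e-05). Hbb-b2 was at 66.3 and 67.2%, then 29.8 and 33.7%, then 46.1 and 42.7%, and its difference was -35.0 points (adjusted p = 2.0e-06). One of its 5 CpGs, 187 bases after the GENCODE start at chr7:110962323, had 0 methylated of 440 reads over the 12 libraries, which allows up to 0.682%. The CpG 190 bases after that start was at 94.4, 42.4 and 62.5% in wild-type E10.5 embryos, E14.5 liver and E18.5 liver. Whether the position at 187 bases is a CpG in these mice was not tested. Without the position at 187 bases, an alternative chosen after seeing the data, the difference was -49.2 points (adjusted p = 7.2e-08).

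The 2 embryonic genes with a tested window did not pass the test. Hbb-y was at 85.7 and 87.5% at E10.5, 83.8 and 83.8% at E14.5 and 85.7 and 86.6% at E18.5, a difference between E14.5 and E10.5 of -2.79 points (adjusted p = 0.49). Hba-x was at 70.6 and 68.7%, then 68.1 and 66.3%, then 63.5 and 61.3%, with a difference of -2.44 points (adjusted p = 0.616). So 3 of 5 members were called lower in E14.5 liver, as were 40.4% of all windows, and the median over all windows was -0.56 points. Over all CpGs of the genome, wild-type methylation went from 70.7 and 72.0% at E10.5 to 56.4 and 58.5% at E14.5. The same 3 were called in the homozygous libraries, at -46.8 points for Hbb-b1, -31.3 for Hba-a1 and -29.2 for Hbb-b2, where 43% of all windows were called lower. E10.5 embryos hold many cell types and E14.5 liver is rich in red cell precursors, and the parts of cell type and stage cannot be told apart. Sex also differs in part, the E10.5 embryos being male and the E14.5 livers of both sexes, and its part was not tested. The E14.5 libraries of either sex were below every E10.5 library for Hbb-b1, Hba-a1 and Hbb-b2.

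**Figure D2:**
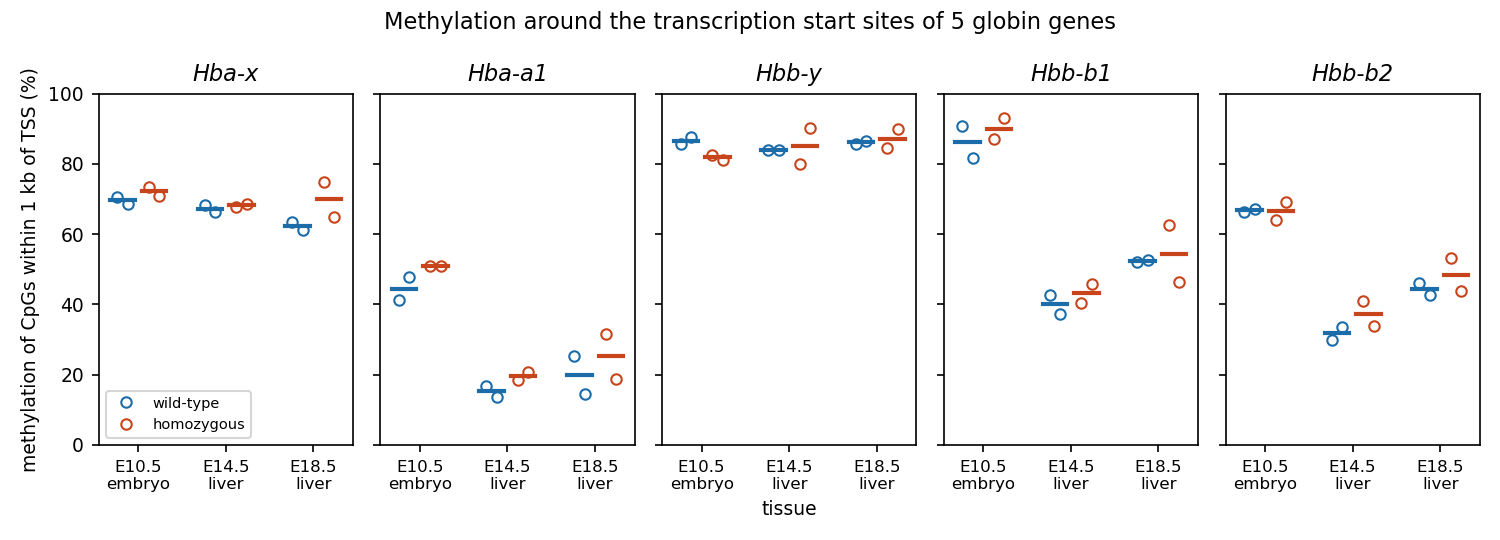
Methylation (%) of the CpGs within 1 kb of the start site of 5 globin genes, by tissue, with 1 point per library, wild-type in blue, homozygous in orange, and a bar at the mean of 2 libraries. Hbb-b1, Hba-a1 and Hbb-b2 are lower in both liver stages than in E10.5 embryos, Hba-x and Hbb-y stay between 61.3 and 90.3% in every library, and the genotypes lie close together.

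Single CpGs show where the adult windows lost methylation. The 2 CpGs in capitals in the Hbb-b1 promoter, 112 and 99 bases before its RefSeq start, were 83.3 and 87.5% methylated in wild-type E10.5 embryos, 18.3 and 22.1% in E14.5 liver and 36.4 and 33.9% in E18.5 liver, from at least 22 reads in each library. Farther up the Hbb-b1 window, from E10.5 to E14.5, the position at -440 bases from the GENCODE start went from 95.8% to 54.9%, that at -491 bases from 85.0% to 47.2%, and that at -606 bases from 89.2% to 81.4%. None of these positions is a CpG in mm9. In the Hbb-b2 window the CpG 4 bases after the RefSeq start was at 80.3, 24.8 and 48.9% in the same order of tissues. In Hba-a1 no value was read for the 2 CpGs of the printed promoter, and the 9 CpGs used lie 490 and 140 bases before and 747 to 892 bases after the GENCODE start. The first of these was at 57.8, 18.8 and 33.0%. In Hbb-y the CpG in capitals, 95 bases before the RefSeq start, was at 67.7, 52.1 and 61.9% in wild-type and at 42.1, 60.2 and 64.3% in homozygous libraries. The position at the GENCODE start of Hbb-y, which is no CpG in mm9, was at 77.1, 81.9 and 84.8% in wild-type. These are sums over 2 libraries, given without a test.

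From E14.5 to E18.5 liver 0 of 5 members were called, by edgeR in wild-type, where 0.551% of all windows were called. Hbb-b2 was 12.7 points higher (adjusted p = 0.141) and Hbb-b1 12.4 points higher (adjusted p = 0.24). Both E18.5 values lay above both E14.5 values for 3 of 5 members, Hbb-b1, Hbb-b2 and Hbb-y, as they did in 32.9% of all windows. Both lay below for Hba-x (-4.82 points, adjusted p = 0.542), as in 23.2% of all windows. Within 2 kb of its start the direction turned, with Hba-x at 58.8 and 59.3% at E14.5 and 63.8 and 64.2% at E18.5. Hba-a1 was 4.52 points higher (adjusted p = 0.477).

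A wider window of 2 kb to either side reached all 7 members and changed the picture for the embryonic genes. The CpGs it adds lie more than 1 kb from the start. Within 1 kb Hba-a2 had 0 usable CpGs, Hbb-bh1 2, Hba-x 8 and Hbb-y 5. Hbb-b2 had the same 5 CpGs at both widths. Hba-a2, with 7 CpGs, was then at 72.5 and 75.5% in wild-type E10.5 embryos, 47.8 and 50.6% in E14.5 liver and 59.7 and 61.4% in E18.5 liver, and its E14.5 minus E10.5 difference was -24.7 points (adjusted p = 2.3e-05). Hbb-bh1, with 6 CpGs, was at 87.5 and 82.6%, 74.0 and 74.1%, and 73.1 and 71.8%, with a difference of -11.0 points (adjusted p = 0.00817). In this window Hba-x (40 CpGs, -10.2 points, adjusted p = 0.00301) and Hbb-y (9 CpGs, -8.59 points, adjusted p = 0.00797) also fell. Thus 7 of 7 were called lower, as were 45.2% of all windows of that width, with the embryonic genes at -8.59 to -11.0 points and the adult genes at -24.7 points (Hba-a2) to -44.7 points (Hbb-b1). The median over all windows of that width was -2.16 points. Over all CpGs of the genome, wild-type methylation went from 70.7 and 72.0% to 56.4 and 58.5%, a larger fall than at the embryonic genes.

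Between genotypes, 0 of 5 member windows were called at E10.5, at E14.5 or at E18.5, where 1.13%, 0.339% and 0.421% of all windows were called. In E14.5 liver the homozygous libraries were at 18.3 and 20.7% for Hba-a1 (wild-type 16.9 and 13.8%), 40.5 and 45.9% for Hbb-b1 (wild-type 42.7 and 37.3%) and 40.8 and 33.8% for Hbb-b2 (wild-type 29.8 and 33.7%). Hba-x was at 67.7 and 68.6% (wild-type 68.1 and 66.3%) and Hbb-y at 80.1 and 90.3% (wild-type 83.8 and 83.8%). Both homozygous libraries lay above both wild-type libraries for 2 of 5 members at E10.5 (Hba-a1 and Hba-x, 33.9% of all windows), for 2 at E14.5 (Hba-a1 and, by less than 1 point, Hbb-b2, 36.1% of all windows) and for 1 at E18.5 (Hba-x, 27.8% of all windows). Both lay below for 1 of 5 at E10.5, Hbb-y, at 82.6 and 81.1% against 85.7 and 87.5% in wild-type, as in 7.82% of all windows. Within 500 bases of its start, with 3 CpGs, Hbb-y was at 66.2 and 63.3% against 82.6 and 74.1%, a difference of -13.6 points that was not called (adjusted p = 0.527). With the 3 tissues averaged, 5.66% of windows were called, 0 of 5 members among them. Hba-a1 was nearest, with homozygous libraries 5.29 points higher (adjusted p = 0.23 in edgeR's test), and was higher in mean in each tissue, by 6.33, 4.19 and 5.35 points. At E18.5 its value turned to -1.12 points without homozygous replicate 1 and was 0.004 points without wild-type replicate 2.

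In the window of 2 kb to either side, Hba-x was called higher in homozygous libraries over the 3 tissues, by 5.86 points (adjusted p = 0.0167), as were 8.46% of all windows of that width. The homozygous values were 76.3 and 76.8% at E10.5, 65.7 and 58.2% at E14.5 and 74.5 and 68.3% at E18.5, against wild-type values of 68.9 and 69.6%, 58.8 and 59.3%, and 63.8 and 64.2%. Both homozygous libraries were above both wild-type libraries at E10.5 and E18.5, as in 40.4% and 28.5% of all windows of that width, but not at E14.5. Without E18.5 homozygous replicate 1, an alternative chosen after seeing the data, the difference was 4.83 points and the call was lost (adjusted p = 0.0605). The other 6 members were not called in that window.

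The clusters were taken as the span of the member genes with 50 kb to either side. In each, the 1 kb tile with the largest loss of methylation from E10.5 embryo to E14.5 liver lay upstream of the genes. Of 1435590 tiles of 1 kb over the genome, 66.4% were called lower in wild-type E14.5 liver (adjusted p below 0.05 and a difference above 15 points), with a median of -19.3 points over all tiles. In the alpha cluster 36 of 103 tiles were called, all lower, with a median of -11.7 points. In the beta cluster 15 of 29 were called, all lower, with a median of -16.0 points. The shares of tiles called in both clusters were thus below that over the genome.

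The tile with the largest difference in the alpha cluster, chr11:32145001-32146000, is centred 30.9 kb upstream of the Hba-x start in an intron of Nprl3. Over 11 CpGs it was at 83.2 and 86.3% in wild-type E10.5 embryos, 22.5 and 25.7% in E14.5 liver and 52.7 and 48.5% in E18.5 liver. The libraries of the 3 tissues did not overlap, with a difference of -60.7 points from E10.5 to E14.5 (adjusted p = 9.2e-23) and 26.5 points from E14.5 to E18.5 (adjusted p = 1.2e-05). The next tiles were 6.9 kb upstream of Hba-x, outside any gene (-49.0 points), 19.9 kb upstream, over Nprl3 with part of an exon (-48.3), 7.9 kb upstream, outside any gene (-40.1), and 24.9 kb upstream, in an intron of Nprl3 (-40.0). Within the span of the genes 4 tiles were called, at Hba-x (-15.7), at Hba-a1 (-31.4), 9.1 kb downstream of the Hba-x start (-39.1) and 17.1 kb downstream of it (-26.4).

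In the beta cluster the largest difference, from 3 CpGs only, was in chr7:111007001-111008000, centred 5.7 kb upstream of the Hbb-y start and outside any gene. It was at 85.4 and 86.2% in wild-type E10.5 embryos, 14.4 and 14.3% in E14.5 liver and 11.4 and 37.2% in E18.5 liver, a difference from E10.5 to E14.5 of -71.4 points (adjusted p = 7.2e-13). The E18.5 livers spanned the E14.5 values. The tile 12.7 kb upstream of Hbb-y followed at -55.2 points, with 86.0 and 80.4%, then 26.4 and 29.6%, then 42.1 and 48.8%. Next outside the gene span were tiles over olfactory receptor genes, Olfr68 at 75.3 kb (-44.4 points) and Olfr69 at 85.3 kb (-35.7 points) downstream of the Hbb-y start. Within the span of the genes 3 tiles were called, at Hbb-b2 (-35.0), and 23.3 and 24.3 kb downstream of the Hbb-y start, near Hbb-b1 (-38.1 and -28.2).

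**Figure D3:**
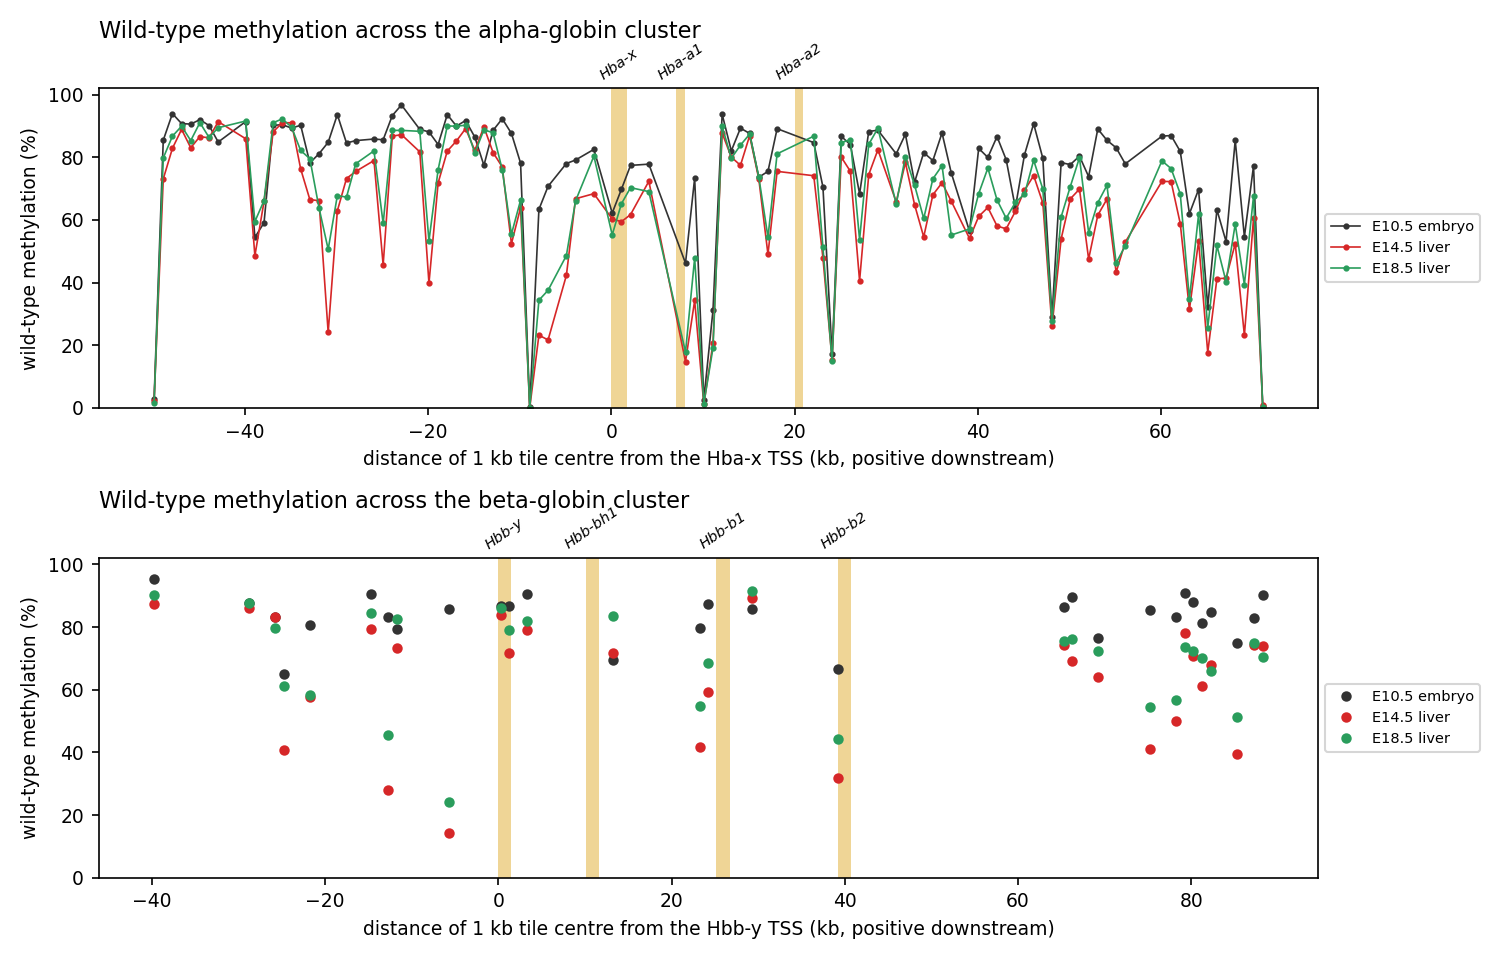
Wild-type methylation (%, mean of 2 libraries) of 1 kb tiles along the alpha cluster (top) and beta cluster (bottom), by distance in kb from the start site of the most upstream member, with gene spans shaded and tissues in colour. The widest gaps between E10.5 and E14.5 lie 30.9 kb upstream of Hba-x (84.8 to 24.1%) and 5.7 kb upstream of Hbb-y (85.8 to 14.3%).

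The sequences of these tiles are shown because they carry the largest differences of either cluster. Each is the 300-base stretch of the tile with the most CpGs used, in mm9, on the strand of the globin genes, with CpGs in capitals.
Upstream of Hba-x, chr11:32145514-32145813, plus strand: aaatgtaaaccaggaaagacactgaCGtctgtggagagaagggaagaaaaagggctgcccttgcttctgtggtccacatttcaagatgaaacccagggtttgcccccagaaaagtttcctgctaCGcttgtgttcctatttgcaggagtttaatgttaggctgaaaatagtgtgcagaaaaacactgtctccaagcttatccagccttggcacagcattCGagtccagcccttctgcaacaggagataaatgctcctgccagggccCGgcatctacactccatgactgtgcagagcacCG
Upstream of Hbb-y, chr7:111007672-111007971, minus strand: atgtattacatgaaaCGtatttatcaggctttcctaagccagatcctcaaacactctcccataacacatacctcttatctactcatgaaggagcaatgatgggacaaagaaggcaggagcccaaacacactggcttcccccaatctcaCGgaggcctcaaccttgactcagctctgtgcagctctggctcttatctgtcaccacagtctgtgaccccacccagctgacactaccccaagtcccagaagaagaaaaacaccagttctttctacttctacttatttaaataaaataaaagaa

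In the alpha stretch all 5 capital CpGs were measured. In wild-type they were at 71.4 to 93.4% at E10.5, then 14.7 to 20.4% in E14.5 liver and 37.0 to 52.2% in E18.5 liver. The 3 CpGs at the upstream end of the same tile were less depleted, at 40.9 to 46.4% in E14.5 liver. In the beta stretch 1 of the 2 capital CpGs was measured, 6.07 kb upstream of Hbb-y, at 76.0, 9.59 and 10.7%, beside a position 6.09 kb upstream that is no CpG in mm9, at 87.5, 10.6 and 10.7%. Searched on both strands, GATA occurs 2 times in the alpha and 3 times in the beta stretch and in 57.9% of RefSeq promoters of the same length. CACCC occurs 0 and 1 times (57.5% of promoters), and TGACTCA, the core of sites for NF-E2 and AP-1 factors, 0 times and 1 time (5.2% of promoters). No homozygous difference was called in either tile.

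**Figure D4:**
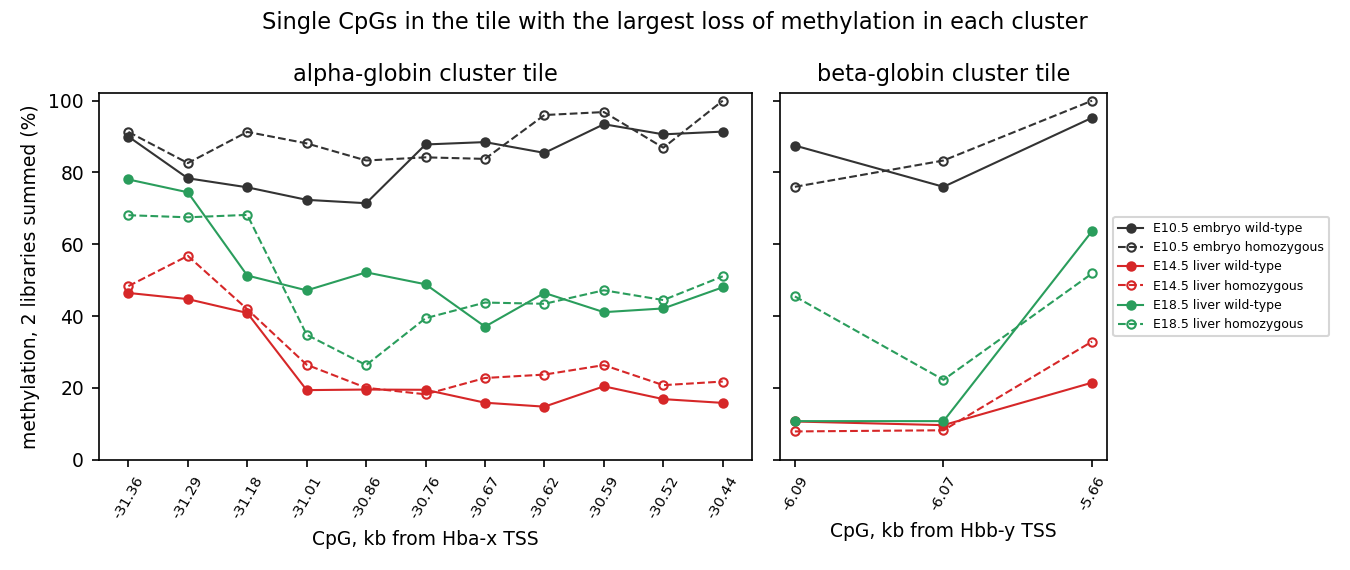
Methylation (%) of each CpG in the tile with the largest loss in the alpha cluster (left, 11 CpGs) and the beta cluster (right, 3 CpGs), with reads of 2 libraries summed, by tissue (colour) and genotype (filled and solid for wild-type, open and dashed for homozygous). E14.5 livers of both genotypes lie below E10.5 embryos at every CpG, and in the alpha tile E18.5 livers lie between them.

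Between E14.5 and E18.5, 3 alpha tiles and 1 beta tile were called, all higher in wild-type E18.5 liver, as were 2.14% of all tiles. Besides the tile 30.9 kb upstream of Hba-x they were the tile 6.9 kb upstream of it (15.8 points, adjusted p = 0.0213), one 69.1 kb downstream (16.2 points, adjusted p = 0.0304) and, in the beta cluster, one 24.7 kb upstream of Hbb-y (20.5 points, adjusted p = 0.0411). Between genotypes 0 of 103 alpha and 0 of 29 beta tiles were called by edgeR in any tissue, where 0.151%, 0.0559% and 0.0802% of all tiles were called at E10.5, E14.5 and E18.5, in that order. The largest difference within the gene spans was at Hba-x in E10.5 embryos, at 69.7% in wild-type and 79.8% in homozygous embryos over 24 CpGs (10.1 points, adjusted p = 0.204). The largest alpha differences at E14.5 and E18.5 lay outside the span and were losses in homozygous livers. They were -14.7 points, 37.1 kb downstream of the Hba-x start, and -15.5 points, 23.1 kb downstream. In the beta cluster the largest were gains of 11.7, 9.97 and 15.2 points at E10.5, E14.5 and E18.5.

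Over the whole span of the alpha genes, Hba-x to Hba-a2, methylation was higher in homozygous libraries. Over 162 CpGs, wild-type libraries were at 56.0 and 58.2% at E10.5, 48.3 and 45.3% at E14.5 and 48.6 and 49.1% at E18.5, and homozygous libraries at 60.7 and 62.2%, 48.8 and 49.5%, and 56.6 and 48.6%. The groups did not overlap at E10.5 and E14.5, and at E18.5 homozygous replicate 2 lay among the wild-type values. The mean difference was 3.46 points (p = 0.0278, exact permutation test, two-sided, with genotypes exchanged inside each tissue, 216 arrangements, smallest p 0.0093). All CpGs of the genome were also 2.18 points higher in homozygous libraries (exact permutation p = 0.0185), and 1.495 points higher without E18.5 homozygous replicate 1. Their groups lay in the same order as in the span. At E10.5 they were at 70.7 and 72.0% in wild-type and 73.3 and 74.0% in homozygous embryos. At E14.5 they were at 56.4 and 58.5% in wild-type and 60.3 and 59.2% in homozygous livers. At E18.5 homozygous replicate 2 (61.44%) lay between the wild-type livers (61.39 and 61.71%). Relative to each library's genome-wide percent, an alternative chosen after seeing the data, the alpha span difference was 1.29 points (exact permutation p = 0.241), and 0.65 points without E18.5 homozygous replicate 1. The uncorrected span difference without that library was 2.14 points (exact permutation p = 0.0648), and without E18.5 wild-type replicate 1 or 2 the p was 0.111 and 0.0741.

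The 50 kb upstream of Hba-x, which holds the alpha tiles with the largest losses, was 1.67 points higher in homozygous libraries (exact permutation p = 0.0185). With CpGs weighted equally it was 0.933 points higher (exact permutation p = 0.102). Relative to the genome-wide percent it was 0.50 points lower (exact permutation p = 0.194). The 50 kb downstream of Hba-a2 was 0.66 points higher (exact permutation p = 0.5). In the beta cluster the gene span, with 54 CpGs used where mm9 holds 201, was at 83.0 and 82.6% in wild-type E10.5 embryos, 59.9 and 64.7% in E14.5 liver and 68.8 and 70.4% in E18.5 liver. Homozygous libraries were at 83.6 and 81.3%, 66.8 and 65.2%, and 74.1 and 69.2%. They lay above both wild-type values at E14.5, as they also did in the genome-wide percent. At E10.5 and E18.5 they overlapped the wild-type values of the span. The mean difference was 1.77 points (exact permutation p = 0.231) and the flanks differed by 0.83 and 1.30 points (p = 0.324 and 0.222, same exact test), so no difference between genotypes was detected in the beta cluster at this depth.

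**Figure D5:**
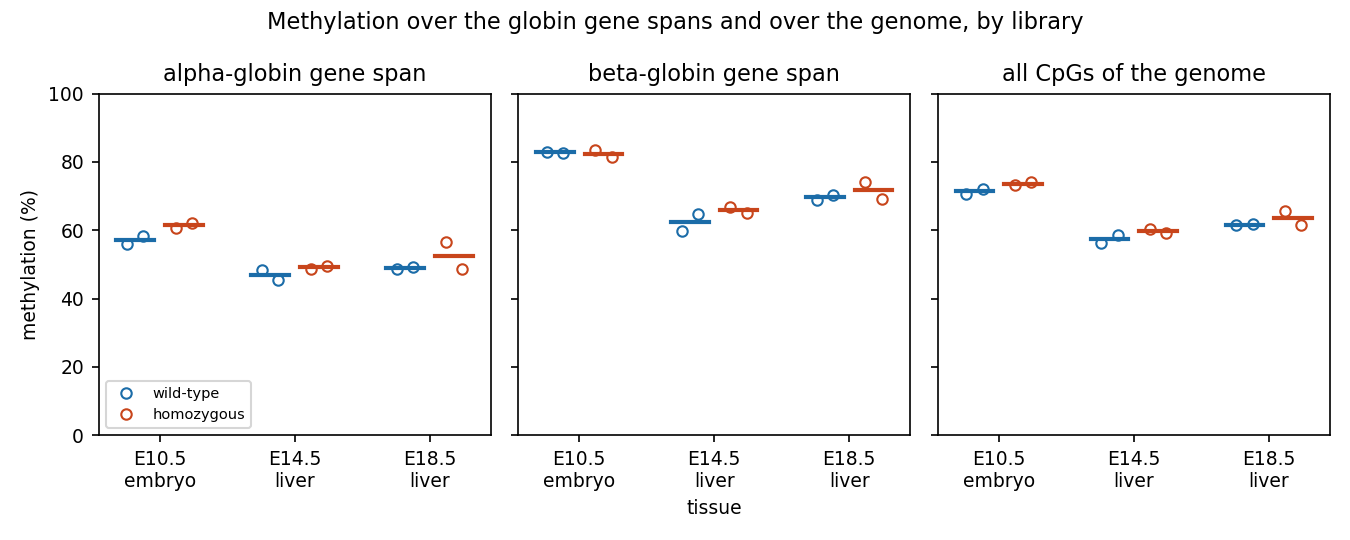
Methylation (%) over the alpha gene span (162 CpGs), the beta gene span (54 CpGs) and all CpGs of the genome, by tissue, with 1 point per library, wild-type in blue, homozygous in orange, and a bar at the mean of 2 libraries. The means of both spans are lower in liver than in E10.5 embryos, as is the genome, and E18.5 homozygous replicate 1 is the highest E18.5 point in all 3 panels.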

How the data were processed

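Whole-genome bisulphite sequencing of 12 libraries and RNA-seq of 6 E14.5 livers were used; H3K4me1 samples of the series were not analysed here. Per the authors' methods, bisulphite reads were aligned with Bismark and Bowtie2 to mm9 carrying FVB/NJ substitutions, duplicates were removed and strands merged, and the deposited files give unconverted and converted read counts and the percent methylation of each CpG. The deposited percent was not used; percentages were computed from the read counts. RNA-seq reads (50 bases, unstranded) were aligned by the authors with TopHat and counted with HTSeq over Ensembl genes, and the deposited values are raw counts per gene.

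RNA counts were tested with edgeR 4.0.16 in R 4.3.3 (TMM scaling, filterByExpr, quasi-likelihood F test, Benjamini-Hochberg adjustment over all genes), with DESeq2 1.42.0 as an alternative. Deviations from the group mean were correlated between same-numbered livers (r = 0.125, 0.226 and 0.409). The labels name no pairs, and same-numbered livers share their sex, so a block by number also holds sex. The fit with that block is given beside the result as an alternative. Methylation was tested with edgeR on methylated and unmethylated counts with an intercept for each library and 6 groups, using CpGs read 6 or more times in each of the 12 libraries, and windows or 1 kb tiles with at least 3 such CpGs. Tiles were called at an adjusted p below 0.05 and a difference above 15 points. Cluster values were tested by an exact permutation test, two-sided, that exchanged genotypes inside each tissue; 2 libraries against 2 in a single tissue cannot go below p = 0.33. Promoters, coordinates and CpGs came from RefSeq, GENCODE vM1 and the mm9 genome with pysam 0.24.0. The fits were tested on simulated data. Alternatives were other scalings, filters, coverage minimums, window widths, blocks and leaving out each library. Named genes were the 7 members, the lowest and highest gene of each list, any list gene that passed the test and the genes most like the members; Afp, Alb, Bcl11a and the tiles after the first of each cluster outside the gene spans were chosen after their values were seen. The members and gene lists were chosen with earlier results of these data known. Where the labels name no separate litters or pools, p-values measure the spread between these samples only. Intervals and limits cover counting error only.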

Additional observations from a re-analysis of the deposited data

How the results depend on the processing

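The RNA-seq gave 250 called genes, 739 without the filter on low counts, 478 with the replicate block and 79 to 292 when 1 liver was left out, and 0 to 2 members were called in those leave-one-out fits. Without the filter, 2 hepatoblast genes were called higher and 1 globin partner, 1 globin regulator and 1 macrophage gene lower, where 0 were with it, and 5 megakaryocyte genes higher and 2 neutrophil genes lower. Leaving out 1 liver moved the log2 fold change of Hba-x between -0.223 and 0.326, of Hbb-y between -0.173 and 0.070 and of Hbb-b1 between -0.424 and 0.115. In the windows around the start sites, leaving out 1 library moved the genotype difference in points of Hba-a1 at E18.5 between -1.119 and 11.814, of Hbb-b1 at E10.5 between -0.685 and 8.306 and at E18.5 between -5.953 and 10.147, of Hbb-b2 at E10.5 between -2.836 and 2.354 and at E18.5 between -0.585 and 8.705, of Hbb-y at E14.5 between -3.744 and 6.489, at E18.5 between -1.667 and 3.646 and over the 3 tissues between -2.499 and 0.912. The wild-type E18.5 minus E14.5 difference of Hba-a1 ran from -0.822 to 9.865. With windows of 2 kb to either side, Hbb-b1 at E10.5 was at -3.194, Hbb-y over the 3 tissues at 0.583 and Hba-x from E14.5 to E18.5 at 4.939 points, against -4.819 within 1 kb; 1 member was called between genotypes over the 3 tissues and 7 between E10.5 and E14.5. With these wide windows and also without E18.5 homozygous replicate 1, chosen after seeing the data, Hba-a1 at E18.5 was at -1.724, Hbb-b1 at E18.5 at -4.146 and over the 3 tissues at -0.665, and Hbb-y over the 3 tissues at 0.675 points; 7 members were called between E10.5 and E14.5, where 12436 of 21392 windows were, and 1 between E14.5 and E18.5, where 1401 were, Hbb-b1 (12.403 points, adjusted p = 0.0455). Hbb-b2 at E10.5 was at 0.004 with at least 10 reads, and Hbb-y at E14.5 at -0.276 with only the 4 libraries of the tissue. The causes were not tested. Above 10 points, 61 alpha tiles (1 of them higher) and 19 beta tiles were called from E10.5 to E14.5, where 1166420 of 1435590 tiles of the genome were. From E14.5 to E18.5, 1 alpha and 1 beta tile were called above 20 points, where 10538 tiles were, and 2 alpha and 0 beta tiles with the replicate block, where 20209 were.

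Without 1 library the cluster differences ran from 1.131 to 2.216 upstream of the alpha genes, 2.144 to 4.787 over their span, -0.288 to 1.611 downstream, 0.806 to 2.453 over the whole alpha cluster and 0.307 to 2.294 downstream of the beta genes. With CpGs weighted equally, alpha upstream was 0.933 (exact permutation p = 0.102) and the whole alpha cluster 1.119 (exact permutation p = 0.0648); over 20 kb, alpha upstream was 1.480 (exact permutation p = 0.185). Relative to the genome-wide percent, the differences were 1.289 for the alpha span, -0.503 upstream, -1.515 downstream and -0.547 for the whole alpha cluster, and -0.402 for the beta span, -1.343 upstream, -0.876 downstream and -0.900 for the whole beta cluster.

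Same-numbered bisulphite libraries did not deviate together in every tissue (r = 0.0621 at E10.5, 0.372 at E14.5 and -0.0279 at E18.5), so the numbers were not taken as pairs. At E14.5 replicate 1 was male and replicate 2 female in both genotypes. With the replicate block the windows called between genotypes went from 234 to 669 at E10.5, 70 to 370 at E14.5, 87 to 218 at E18.5 and 1170 to 1937 over the 3 tissues, with no change of call at a member. Hba-a2 and Hbb-bh1 had 0 and 2 usable CpGs within 1 kb, for which depth and read placement were not told apart by a test.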
